A study of Homo sapiens with 6 samples.

Results

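Chemokine and chemokine receptor genes were examined in THP1 cells exposed to WFA. The members are the 63 genes, of 26485 in the deposited table, whose symbol is that of a CC, CXC, XC or CX3C chemokine or of a receptor for one of these classes, and 45 of them encode ligands and 18 encode receptors. THP1 is a human acute monocytic leukemia cell line, so all libraries represent a single line. The cells were treated for 6 h with withaferin A (WFA), a plant steroidal lactone, or with the solvent DMSO. Each group has 3 libraries, for which total RNA from 3 independent experiments was the starting material. The sample labels give the WFA dose as 1 mM. The study states the dose of this sequencing experiment in μM, both in its methods and in a figure legend. It reports that doses in the μM range inhibited AML cell lines. The unit in the labels is not explained, and the counts cannot show the dose.

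Chemokines are small secreted proteins that direct the migration of leukocytes, and they are classed by the spacing of their first cysteines. They act on receptors of the G protein-coupled family that signal mainly through inhibitory G proteins, and one receptor often binds several ligands. In monocytes CCR2 and its ligand CCL2 govern release from the bone marrow and entry into inflamed tissue, CX3CR1 marks patrolling cells, and CXCR4 with its ligand CXCL12 retains hematopoietic and leukemic cells in the marrow.

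The promoters of 4 well-counted receptor genes are shown because CCR2, CXCR4 and CX3CR1 fell with WFA, whereas CCR1, from the same gene cluster as CCR2, did not pass the test. Each line is the 250 bases before the gene's first-listed start in RefSeq (GRCh38.p14), read 5′ to 3′ on the gene's strand, with capitals on each match to AACNG, the core of the c-MYB recognition sequence, on either strand. They lie at chr3:46353861-46354110 (+) for CCR2, chr3:46208314-46208563 (-) for CCR1, chr2:136118150-136118399 (-) for CXCR4 and chr3:39281736-39281985 (-) for CX3CR1.
CCR2: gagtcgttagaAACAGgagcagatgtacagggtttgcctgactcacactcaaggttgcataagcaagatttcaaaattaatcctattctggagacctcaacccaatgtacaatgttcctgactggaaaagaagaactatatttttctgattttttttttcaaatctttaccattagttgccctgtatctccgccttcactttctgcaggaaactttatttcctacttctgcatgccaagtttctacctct
CCR1: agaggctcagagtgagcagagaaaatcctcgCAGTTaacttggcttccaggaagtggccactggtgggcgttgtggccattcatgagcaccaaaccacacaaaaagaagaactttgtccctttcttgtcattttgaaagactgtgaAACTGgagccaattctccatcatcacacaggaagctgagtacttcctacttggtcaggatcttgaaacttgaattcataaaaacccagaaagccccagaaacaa
CXCR4: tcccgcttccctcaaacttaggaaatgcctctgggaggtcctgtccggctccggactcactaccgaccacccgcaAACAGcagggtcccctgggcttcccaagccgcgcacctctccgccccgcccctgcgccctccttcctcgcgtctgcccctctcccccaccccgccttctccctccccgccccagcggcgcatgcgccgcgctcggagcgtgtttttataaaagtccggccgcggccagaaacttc
CX3CR1: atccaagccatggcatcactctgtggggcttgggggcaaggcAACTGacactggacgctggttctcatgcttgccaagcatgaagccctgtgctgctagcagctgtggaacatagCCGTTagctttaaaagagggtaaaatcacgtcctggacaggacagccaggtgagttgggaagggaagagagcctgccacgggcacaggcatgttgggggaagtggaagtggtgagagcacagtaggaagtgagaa
CXCR4 and CX3CR1 each have 3 listed starts, of which only the first-listed was searched, and the CX3CR1 window lies inside the gene. The window of CCR2 held 1 AACNG match, that of CXCR4 1, that of CX3CR1 2 and that of CCR1 2. Such a match was found in 70.6% of 27305 promoter windows of the same length, so it does not set these genes apart. CXCR4 also had a match to the heat shock element GAANNTTC, which begins 8 bases before the start and was found in 5.85% of all windows. CCR2 had a match to the AP-1 sequence TGANTCA (6.6% of all windows), as had CXCL8. CXCR2, the remaining receptor that fell, had 4 AACNG matches, in a window that likewise lies inside the gene. These matches did not overlap one another. The NF-kB pattern, searched on both strands as were all motifs, was found in 9.57% of all windows. Among the tested members it was found in CXCL1 and CCL22, each with 2 overlapping matches. The CCL22 window also lies inside its gene. A single strict pattern was used, so variant sites, in CXCL8 or elsewhere, would be missed. RefSeq promoters were matched for 45 members and for 10 of the 13 that were tested, and among the others CCL2 and CXCL16 were not matched.

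Total counts ran from 11006035 to 13872810 per library, and no pair of libraries within a group was a duplicate (mean chi-square per gene 5.92 to 10.9). The cells expressed monocytic genes, with 12 of 13 listed markers tested, and MEIS1 had no more than 1 count. Their summed level was 2662 to 3237 CPM (counts scaled to the library total with TMM factors) with DMSO and 2443 to 3211 CPM with WFA. Most of this sum was LYZ, with a mean of 1823 CPM with DMSO and 1764 CPM with WFA (edgeR adjusted p = 0.811). The sum therefore says little about the other markers. CD33, CSF1R, CD14 and PTPRC were lower, CD68 was higher and 7 did not pass the test. T cell, erythroid and epithelial markers were at or near 0, with no more than 6 counts in any library, and CD3E and HBB had at most 1. Of the 6 fibroblast and endothelial markers only COL1A1 was tested, and it rose by 4.47 on the log2 scale (standard error, SE, 0.34, edgeR adjusted p = 7.18e-08), while COL1A2 had no count. Of the 5 B cell markers 3 were tested, among which CD79B rose and PAX5 fell, and none had more than 45 counts in a library. The part of these shifts in the chemokine results was not tested.

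Most members were too sparsely counted to compare. No library had a count for 23 of the 63, and a further 15 had 3 counts or fewer in every library, so 38 members were at the floor in both groups. For a gene without counts, 3 counts per library allow a level of up to 0.211 to 0.279 CPM, and this limit covers counting error only. Another 12 members had more than 3 counts in some library but did not pass edgeR's filter. The remaining 13, namely 6 receptors and 7 ligands, were tested with edgeR's quasi-likelihood test over 12854 genes. At a Benjamini-Hochberg adjusted p-value under 0.05, WFA lowered 5 of them (CCR2, CXCR4, CX3CR1, CXCR2 and CCL2) and raised 1 (CCL28). Among all tested genes 24.7% were lower and 25.8% higher, so 50.5% were called in either direction. The counts in the 2 groups did not overlap after scaling for 6 of the 13 members, against 58.1% of all tested genes. The median log2 fold change was -0.39 over the 13 members and 0.02 over all tested genes. A share of calls this near the background does not by itself mark the family.

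**Figure D1:**
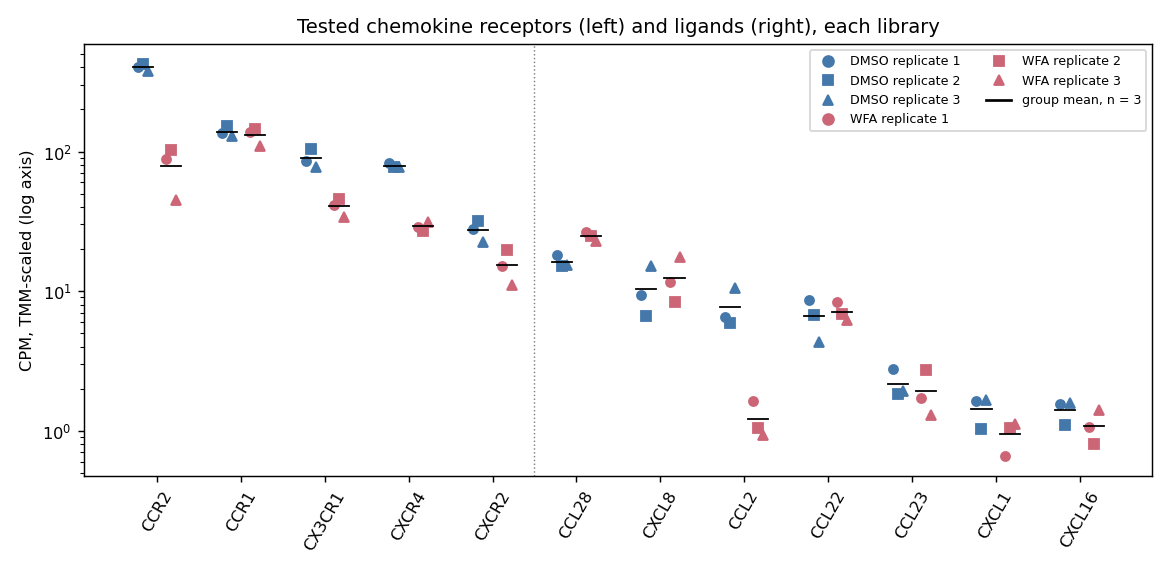
Scaled counts (CPM, log axis) of 12 of the 13 tested members in each of the 6 libraries, receptors left of the dotted line and ligands right of it, with blue for DMSO, red for WFA, a symbol for each replicate number and a bar for the group mean (n = 3). CCR2, CX3CR1, CXCR4, CXCR2 and CCL2 lie below all DMSO libraries in all 3 WFA libraries, CCL28 lies higher, and CCR1 overlaps.

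The receptors carried most of the counts listed and 4 of the 5 falls. Summed over the 18 receptor genes, the level was 740.4, 791 and 688 CPM in DMSO replicates 1, 2 and 3 and 313, 343 and 233 CPM in the WFA replicates. The sum over the 45 ligand genes was 52.0, 43.3 and 55.6 CPM with DMSO and 54.1, 48.3 and 54.8 CPM with WFA. The groups thus overlapped for the ligands and not for the receptors. CCR2 alone went from a mean of 404 to 78.6 CPM, where the receptor sum went from a mean of 740 to 296 CPM. Within the ligand sum, CCL2 fell while CCL28 rose. Ligands listed at 0 that may be expressed, as set out below, are missing from this sum. In bulk RNA, fewer cells that express a gene and less RNA per cell cannot be told apart.

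CCR2, the receptor for CCL2 and related monocyte chemoattractants, had the most counts of any member with DMSO. It stood at 406, 426 and 379 CPM in the DMSO libraries and at 88.0, 103 and 45.2 CPM in the WFA libraries. Every WFA library was below every DMSO library, and WFA replicate 3 was the lowest. The mean of 404 ± 23.9 CPM became 78.6 ± 29.8 CPM (SD, n = 3 per group). The log2 fold change was -2.36 (SE 0.20, edgeR adjusted p = 2.26e-07), which leaves 19.5% of the DMSO level. In the replicate pairs the log2 differences were -2.21, -2.05 and -3.06.

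CXCR4, the receptor for CXCL12, was at 82.8, 76.8 and 77.5 CPM with DMSO and at 28.7, 27.1 and 31.4 CPM with WFA. The libraries within each group lay close together and the groups did not overlap. Its log2 fold change was -1.45 (SE 0.10, edgeR adjusted p = 1.59e-08), the smallest adjusted p-value among the members. Here WFA replicate 3 was the highest of the treated libraries, unlike its place for CCR2.

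CX3CR1, which binds the membrane-anchored chemokine CX3CL1, was at 86.0, 104 and 77.8 CPM with DMSO and at 41.3, 46.0 and 34.0 CPM with WFA. The fall was similar in the replicate pairs, with log2 differences of -1.05, -1.17 and -1.19. The fitted log2 fold change was -1.14 (SE 0.12, edgeR adjusted p = 2.83e-06). Its ligand gene CX3CL1 had no count in any library.

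CXCR2, a receptor for CXCL8 and other neutrophil-attracting CXC chemokines, was at 27.6, 31.7 and 22.4 CPM with DMSO and at 15.03, 19.8 and 10.98 CPM with WFA. The lowest DMSO library was still above the highest WFA library. The log2 fold change was -0.83 (SE 0.18, edgeR adjusted p = 0.00139), so this was the only one of the receptors that fell to change by less than 2-fold. Among the 13 tested members, over 2-fold falls were called for 4, CCL2 included, and for 5.2% of all tested genes. None of the 13 rose over 2-fold, as did 8.11% of all tested genes.

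CCR1, a receptor for CCL3, CCL5 and other inflammatory CC chemokines, was at 135, 151 and 129.9 CPM with DMSO and at 138, 145 and 109.7 CPM with WFA. The groups overlapped. Its log2 fold change of -0.08 (SE 0.11, edgeR adjusted p = 0.548) had a 95% interval from -0.31 to 0.14, so a fall of the size seen for CCR2 or CXCR4 lies outside it.

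Ratios of receptor counts within a library do not depend on the scaling between libraries. The CCR2 count was 3.02, 2.82 and 2.91 times that of CCR1 with DMSO and 0.638, 0.706 and 0.412 times with WFA, a difference of -2.35 on the log2 scale. The ratio of CXCR4 to CCR1 went from a mean of 0.573 to 0.227, and that of CX3CR1 to CCR1 from 0.641 to 0.309. For CXCR2 it went from 0.196 to 0.115. Each of these ratios was lower in all WFA libraries than in all DMSO libraries. A two-sided exact permutation test gave p = 0.1 for each of the 6 ratios compared (these and CCL2 to CXCL8 and to CCL28), before and after Benjamini-Hochberg adjustment, the smallest value that 3 libraries against 3 allow. The genes in these ratios were chosen after their values were seen.

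**Figure D2:**
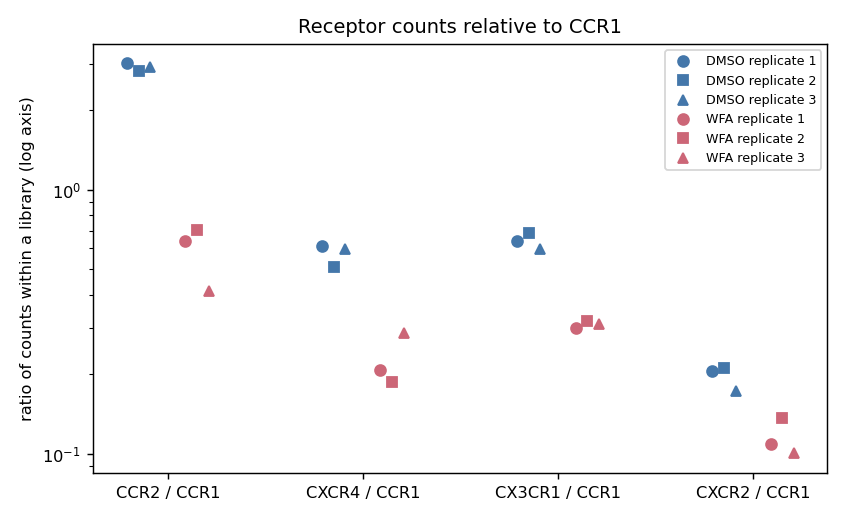
Count of each of 4 receptors divided by the count of CCR1 in the same library (log axis), with blue for DMSO, red for WFA and a symbol for each replicate number. All 4 ratios are lower in the WFA libraries, and the CCR2 ratio falls from a mean of 2.92 to 0.586.

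To compare receptors with one another, levels were divided by the exon length of each gene in GENCODE 29. On this per-kilobase scale, with CPM per kilobase as the unit, CCR2 led with 111 ± 6.57 in the DMSO group (SD, n = 3), followed by CCR1 with 50.7 ± 4.06, CXCR4 with 39.2 ± 1.62, CX3CR1 with 24.4 ± 3.64 and CXCR2 with 9.47 ± 1.63. The ranges of neighbors in this order did not overlap among these 5 receptors. With WFA, CCR1 came first with 47.9 ± 6.85 and CCR2 followed with 21.6 ± 8.19. As a share of the summed per-kilobase level of the 6 tested receptors, CCR2 went from 47.2% ± 0.341 to 20.9% ± 4.97 and CCR1 from 21.6% ± 0.587 to 47.9% ± 1.47 (SD, n = 3 each). CCR1 thus stood above CCR2 in the means with WFA, but CCR2 overlapped CXCR4 (14.4 ± 1.08), which was the higher of these in WFA replicate 3 (15.6 against 12.4). These levels describe the mRNA and not the protein on the cell surface.

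Among the ligands, CCL2, the monocyte chemoattractant that acts on CCR2, fell. Its level was 6.47, 5.92 and 10.6 CPM with DMSO and 1.63, 1.05 and 0.931 CPM with WFA, which corresponds to 75 to 127 and 10 to 20 counts. The groups did not overlap, and DMSO replicate 3 was the highest while WFA replicate 3 was the lowest. The log2 fold change was -2.64 (SE 0.30, edgeR adjusted p = 3.89e-06), a 6.25-fold lower level. Ligand and receptor of the CCL2 and CCR2 pair therefore both fell, to 16.0% and 19.5% of the DMSO level. Within libraries, the CCL2 count was on average 0.761 times that of CXCL8 with DMSO and 0.106 times with WFA.

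CCL28, a mucosal chemokine that acts on CCR3 and CCR10, was the member that rose. It was at 18.1, 15.1 and 15.5 CPM with DMSO and at 26.6, 24.6 and 22.9 CPM with WFA, so each treated library was above each control library. The log2 fold change was 0.60 (SE 0.12, edgeR adjusted p = 0.000863), a rise of 1.52-fold. CCR10 had no count in any library, and CCR3 had 4 to 7 counts with DMSO and 1 to 3 with WFA.

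CXCL8 (interleukin-8), the main ligand of CXCR2, did not pass the test. It was at 9.36, 6.63 and 15.2 CPM with DMSO and at 11.6, 8.38 and 17.5 CPM with WFA. The replicates varied more than the groups differed, although the WFA library was the higher of each pair, with log2 differences of 0.31, 0.33 and 0.20. The fitted log2 fold change was 0.26, with a 95% interval from -0.32 to 0.85 (edgeR adjusted p = 0.446).

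The remaining tested ligands overlapped between the groups. CCL22, a ligand of CCR4, was at 8.65, 6.79 and 4.33 CPM with DMSO and at 8.33, 6.85 and 6.23 CPM with WFA, with a log2 fold change of 0.11 (95% interval -0.37 to 0.59). CCL23, a ligand of CCR1, was at 2.74, 1.82 and 1.92 CPM with DMSO and at 1.72, 2.74 and 1.30 CPM with WFA (log2 fold change -0.17, 95% interval -0.82 to 0.49). Neither differed beyond its replicate spread.
CXCL1, a CXCR2 ligand, was at 1.62, 1.03 and 1.67 CPM with DMSO and at 0.653, 1.05 and 1.12 CPM with WFA (log2 fold change -0.62, 95% interval -1.34 to 0.11). CXCL16, a transmembrane chemokine that binds CXCR6, was at 1.55, 1.11 and 1.58 CPM with DMSO and at 1.06, 0.805 and 1.40 CPM with WFA (log2 fold change -0.39, 95% interval -1.08 to 0.30). The edgeR adjusted p-values were 0.717 for CCL22, 0.681 for CCL23, 0.145 for CXCL1 and 0.337 for CXCL16. CXCL16 shares 85 exon bases with MED11 on the other strand, and the library kit does not mark strand.

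**Figure D3:**
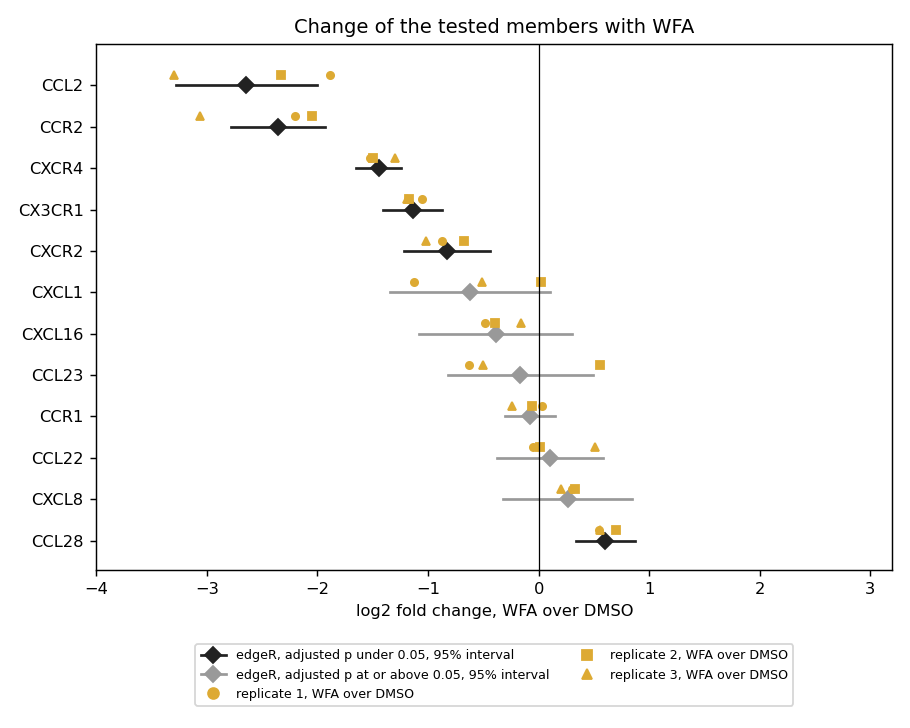
Log2 fold change of WFA over DMSO for 12 of the 13 tested members, with diamonds and lines for the edgeR estimate and its 95% interval (black where the adjusted p-value is under 0.05, grey otherwise) and yellow symbols for the 3 replicate pairs. CCL2, CCR2, CXCR4, CX3CR1 and CXCR2 lie below 0 in all 3 pairs, CCL28 lies above 0 in all 3, and the intervals of the other members shown include 0.

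The members above the floor that were not tested had few reads, and their rate ratios of WFA to DMSO are given with exact binomial intervals that cover counting error only. CXCL2, a CXCR2 ligand, had 6, 11 and 16 counts with DMSO and 1, 2 and 6 with WFA, a ratio of 0.300 (95% interval 0.126 to 0.640). CXCL10, an interferon-inducible ligand of CXCR3, had 5, 3 and 5 counts with DMSO and 0, 0 and 2 with WFA (95% interval 0.019 to 0.746). CXCR3 itself had 12, 7 and 6 counts with DMSO and 2, 3 and 3 with WFA (95% interval 0.137 to 0.804). These counting intervals lay below 1. CXCL10 and CXCR3 were at the floor of 3 counts with WFA, so only the interval of the ratio is given for them.
CXCR1, the other CXCL8 receptor and the neighbor of CXCR2, went the other way. It had 0, 1 and 0 counts with DMSO, which is at the floor, and 4, 2 and 4 with WFA. Only the 95% interval of its ratio is therefore given, 1.56 to 477. CXCL12 had 7, 14 and 9 counts with DMSO and 6, 8 and 10 with WFA, so its ratio of 0.879 had an interval from 0.492 to 1.55. The intervals of CCL13, CCL20, CCR3, CCR6, CXCL3, CXCL6 and CXCL14 also included 1, with ratios from 0.480 to 1.37. The lowest of these ratios is that of CCR3, which was at the floor with WFA. CXCL1, CXCL2 and CXCL3 are close copies of one another, so the split of reads among them is uncertain. When the filter on low counts was removed, CXCL2 was lower (log2 fold change -1.72, edgeR adjusted p = 0.0102) and CXCR1 higher (edgeR adjusted p = 0.0345). CXCL10 (edgeR adjusted p = 0.0503) and CXCR3 (edgeR adjusted p = 0.0509) were not called.

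The 15 members at the floor in both groups that had any count were CCL3L1, CCL8, CCL17, CCL19, CCL21, CCL24, CCL25, CCL26, CCR4, CCR7, CXCL5, CXCL9, CXCL11, CXCR5 and XCR1. Of these, CCL21 had 3 counts in each DMSO library and 0 in each WFA library. CCL26 had 0 with DMSO and 1, 1 and 3 with WFA. Without the filter CCL21 was called lower (edgeR adjusted p = 0.016) and CCL26 was not called (edgeR adjusted p = 0.0727), but both groups are within the floor and no fold is given.

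A count of 0 could not always be read as a lack of expression. The 23 members without counts were CCL1, CCL3, CCL3L3, CCL4, CCL4L1, CCL4L2, CCL5, CCL7, CCL11, CCL14, CCL15, CCL16, CCL18, CCL27, CCR8, CCR9, CCR10, CX3CL1, CXCL13, CXCL17, CXCR6, XCL1 and XCL2. Of these, 9 lie in a single stretch of 1.88 Mb between AP2B1 and DDX52 (chr17:35726414-37609738 in RefSeq GRCh38.p14, the assembly that the authors' build hg38 names). This stretch holds 35 protein-coding genes of the table, and 29 of them had no count in any library, against 20.2% of all protein-coding genes. Among the 29 were TAF15, GGNBP2 and AATF, which are expressed in nearly all cell types. The genes with counts were CCL23, ACACA, TADA2A, DUSP14, MRM1 and RASL10B, and apart from CCL23 none had more than 18 counts in a library.
Accordingly CCL3, CCL4, CCL5, CCL14, CCL15, CCL16, CCL18, CCL3L3 and CCL4L2 are reported only as listed at 0, without an upper limit, and CCL23, with its counts as given above, lies in the same stretch. The boundaries of the stretch were chosen after the counts were seen. MIF, a chemokine-like cytokine gene outside the family symbols that is expressed in most cells, was also listed at 0. RPS18, which encodes a ribosomal protein, had at most 1 count. For the other 14 members at 0, the floor applies only if reads could be assigned to them, which was not tested.

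**Figure D4:**
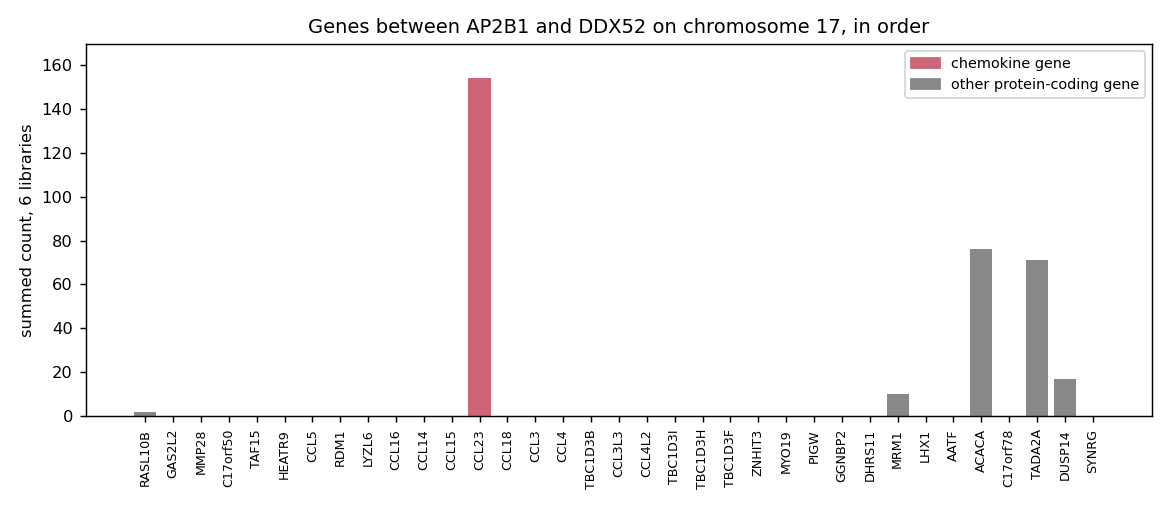
Summed count over the 6 libraries of each protein-coding gene between AP2B1 and DDX52 on chromosome 17, in chromosomal order, with chemokine genes in red and others in grey. Only CCL23, ACACA, TADA2A, DUSP14, MRM1 and RASL10B have any count, and TAF15, GGNBP2 and AATF are at 0 like CCL3, CCL4 and CCL5.

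Outside this stretch, neighbors within a cluster differed in their counts. Of the neighbors set side by side here, only CCR2 and CCR1 were both tested, so only these can be compared for change. On chromosome 3, CCR1 (chr3:46201711-46208313), CCR3 (chr3:46210696-46266706) and CCR2 (chr3:46354111-46360940) follow one another, and of these CCR2 fell and CCR1 did not pass the test. CX3CR1 (chr3:39263494-39292966) fell, and its neighbor CCR8 had no count, so a fall there could not be seen. In the CC chemokine cluster of chromosome 17 that begins with CCL2 (chr17:34255285-34257203), CCL7, CCL11 and CCL1 had no count, CCL8 had at most 2 and CCL13 at most 5. In the CXC cluster of chromosome 4, CXCL8 (chr4:73740569-73743716) was the most counted gene, CXCL6 had 3 to 9 counts per library and CXCL5 at most 1.

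Genes of the chemokine system whose symbols fall outside the family names were compared by a list, of which 13 were in the table and 6 were tested. Of these 6, 2 were lower and 3 higher with WFA, where 24.7% of all tested genes were lower and 25.8% higher, and the median log2 fold change was 0.03. ACKR2, a scavenger of inflammatory CC chemokines, had a mean of 3.76 ± 1.02 CPM with DMSO and 1.69 ± 0.212 CPM with WFA (SD, n = 3 per group), and its log2 fold change was -1.16 (SE 0.27, edgeR adjusted p = 0.00236). ACKR3, a scavenger of CXCL12, had 18, 12 and 11 counts with DMSO and 5, 4 and 4 with WFA, with a log2 fold change of -1.49 (SE 0.40, edgeR adjusted p = 0.00577). Both scavenging receptors thus fell.
CCRL2, which presents the chemoattractant chemerin and does not signal itself, rose from 2.07 ± 0.222 to 4.88 ± 0.315 CPM (log2 fold change 1.23, standard error 0.22, edgeR adjusted p = 0.000248). TPST1 and TPST2, the tyrosine sulfotransferases that modify the ligand-binding ends of chemokine receptors, rose with log2 fold changes of 1.02 and 0.60 (edgeR adjusted p = 5.92e-05 and 0.000411). PF4, PF4V1, PPBP and ACKR1 had no count and ACKR4 had 1.

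Of the 32 listed genes that carry or shut off the signal of chemokine receptors, 31 were tested. With WFA 19 were lower and 4 higher (all tested genes, 24.7% and 25.8%). Genes of both kinds were among those that fell, so these counts do not give a direction for signaling. Their median log2 fold change was -0.54, against 0.02 over all tested genes. RGS16, which speeds the shut-off of G proteins, fell with a log2 fold change of -2.21 (SE 0.21, edgeR adjusted p = 6.65e-07). ADRBK2, which encodes the receptor kinase GRK3, fell by 1.24 on the log2 scale (SE 0.11, edgeR adjusted p = 4.43e-07), and PREX1, an activator of the GTPase RAC driven by G proteins, fell by 1.21 (SE 0.12, edgeR adjusted p = 9.33e-07). RGS2, another G protein regulator, went against them with a mean of 6.79 ± 0.777 CPM with DMSO and 35.1 ± 6.40 CPM with WFA (SD, n = 3 per group), and its log2 fold change was 2.37 (SE 0.16, edgeR adjusted p = 1.6e-08). PXN, which encodes the adhesion protein paxillin, also rose (log2 fold change 0.77, edgeR adjusted p = 1.85e-05). GNAI2, the inhibitory G protein subunit used by these receptors in leukocytes, had a log2 fold change of 0.09 and did not pass the test (edgeR adjusted p = 0.408).

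Of 17 genes for transcription factors and inhibitors that act on chemokine promoters, 6 were lower and 5 higher, near the 24.7% and 25.8% of all tested genes, and the median log2 fold change was 0.07. NFKB1, which encodes the NF-kB subunit p50, fell with a log2 fold change of -0.80 (SE 0.09, edgeR adjusted p = 3.88e-06), and NFKB2, which encodes p52, rose by 1.05 (SE 0.15, edgeR adjusted p = 3.78e-05). The AP-1 genes JUN and FOSL1 rose by 1.11 and 1.41 (edgeR adjusted p = 3.43e-05 and 6e-05). Of the other AP-1 genes listed, FOS fell by 0.79 on the log2 scale (edgeR adjusted p = 0.000439) and JUNB, at 0.08, did not pass the test (edgeR adjusted p = 0.648). RELA had a log2 fold change of -0.13 and did not pass the test (edgeR adjusted p = 0.292).
Of 10 genes for proteins that bind and destabilize or stabilize chemokine mRNAs, 4 were lower and 2 higher, beside 24.7% and 25.8% of all tested genes, with a median log2 fold change of -0.14. ZFP36L2, which promotes decay of mRNAs with AU-rich elements, fell with a log2 fold change of -1.95 (SE 0.14, edgeR adjusted p = 3.2e-08). Its relatives ZFP36 (tristetraprolin) and ZFP36L1 rose by 0.95 and 0.70 (edgeR adjusted p = 3.38e-06 and 0.00486). HNRNPD (AUF1) and TIAL1 fell with log2 fold changes of -0.53 and -0.44 (edgeR adjusted p = 0.00017 and 0.000382). GNAI2, RELA, FOS and JUNB were named after their values were seen.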

How the data were processed

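RNA sequencing covered 6 THP1 libraries, namely 3 with WFA and 3 with DMSO. Whole-number read counts deposited by the authors are given per gene without normalization. The submitters' processing notes name bcl2fastq 2.19, Trimmomatic, Bowtie2, Picard, featureCounts and DESeq2, with build hg38. The gene annotation and the treatment of multiply mapped reads are not given in the sources used here, and TruSeq RNA v2 libraries do not mark strand. The table also holds scaled counts and the authors' own fold changes and p-values, which were not used.
Counts were fitted with edgeR 4.0.16 in R 4.3.3 (TMM, filterByExpr with a minimum count of 10, quasi-likelihood test, Benjamini-Hochberg adjustment over 12854 genes, threshold 0.05). The standard error is the log2 fold change divided by the square root of F. In simulated counts for this comparison, 95.5% of 199 changed genes among 12749 were recovered. The measured counts differ from these, with 50.5% of 12854 tested genes called, and the share recovered in them was not tested. Pair differences used log2 CPM with a prior count of 2. The members and lists were chosen with earlier results of these data known.
Replicate numbers pair the libraries, since the labels give same-numbered libraries a shared code of digits. The labels do not say what this code stands for, so the pairing is inferred. Their deviations from the group means correlated across genes at 0.22, 0.33 and 0.25, against -0.26 to 0.00 for other pairs. The depth of 11006035 to 13872810 counts sets the precision. Named genes are all members, the ACKR, PF4 and PPBP genes and, from each list, 4 genes at most by p-value and up to 2 called in the other direction. Alternatives were a replicate block, DESeq2 1.42.0, other scalings and filters, a robust fit and leaving out each library. Results for some genes are not reported here.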

Additional observations from a re-analysis of the deposited data

How the results depend on the processing

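The 5 falls (CCR2, CXCR4, CX3CR1, CXCR2 and CCL2) and the rise of CCL28 kept their direction and stayed past the threshold in all 13 alternatives. With the replicate block 5 members were lower and 1 was higher, as without it, and it changed no other call among the members. On the lists beside them, the block took the decay proteins from 2 to 3 higher. The genes outside the family symbols went from 2 to 3 lower. The genes that carry or shut off the receptor signal went from 19 to 20 lower. The monocytic markers went from 1 to 2 higher, the second being HOXA9. With each library left out, between 5 and 6 members were lower and 1 was higher. The sixth was CXCL2, called when DMSO replicate 1 or WFA replicate 3 was absent. Without a filter on low counts 2 members were higher, the second being CXCR1, and 7 were lower, with CXCL2 and CCL21 added. DESeq2 gave CXCL2 an adjusted p of 0.0795. The log2 fold changes with a library left out ran from -2.59 to -2.08 for CCR2, from -2.93 to -2.35 for CCL2, from -1.50 to -1.40 for CXCR4, from -1.24 to -1.03 for CX3CR1, from -1.06 to -0.64 for CXCR2 and from 0.54 to 0.69 for CCL28.
Signs turned only for members not called in any setting, and which cause lay behind this was not tested. With each library left out, the log2 fold change of CCL22 ran from -0.12 to 0.36, that of CCL23 from -0.51 to 0.052, that of CCR1 from -0.16 to 0.033 and that of CXCL8 from -0.048 to 0.63.
Of the 63 members, 50 were not tested because their counts did not pass the filter.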
